A study of Mus musculus with 6 samples.

Results

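The RNAs described here are 9 noncoding host genes of small nucleolar RNAs (snoRNAs), namely Snhg1, Snhg3, Snhg5, Snhg6, Snhg8, Snhg12, Gas5, Zfas1 and Epb41l4aos, out of 28660 identifiers in the table other than spike-ins. They were chosen by gene name, leaving out rows of a small RNA type. Of the 9, 7 stood in the table under these names, while Zfas1 stood under its older name 1500012F01Rik and Epb41l4aos under 2410004N09Rik, and both were matched by Ensembl identifier. The table types Zfas1 as protein-coding, Snhg1, Snhg6, Snhg12 and Epb41l4aos as lincRNA, and the other 4 as processed transcripts.

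The samples were nuclei of HL-1 cells, an established mouse cardiomyocyte line of atrial origin, grown with serum and norepinephrine and with no further treatment. Nuclei freed by detergent were fractionated biochemically into a chromatin pellet extract (3 libraries) and a soluble nuclear extract (3 libraries). Synthetic ERCC RNAs went into each fraction as spike-ins before the RNA was extracted. The authors deposited 1 FPKM value per fraction, a fragment count divided by transcript length and by the size of the library, so the replicates cannot be seen apart, no replicate error can be given and no test was made. The question is which nuclear RNAs remain on chromatin and which are released.

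Small nucleolar RNAs guide chemical modification or cleavage of ribosomal RNA. In mammals most of them are cut out of introns of a longer host transcript. Some hosts encode ribosomal or nucleolar proteins, and others, such as the 9 genes here, carry the snoRNA in an intron while their spliced exons code for no well-conserved protein. The spliced exons of several such hosts are exported and broken down in the cytoplasm by nonsense-mediated decay, and many hosts start at a pyrimidine-rich site like that of ribosomal protein genes, the terminal oligopyrimidine start. Box C/D snoRNAs (Snord symbols) guide ribose methylation and box H/ACA snoRNAs (Snora symbols) guide pseudouridylation.

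The start sites of the hosts were read from RefSeq on GRCm38.p6, the build that mm10 stands for, because the host class is known for its pyrimidine-rich starts. A promoter entry was found for 7 of the 9. Each sequence below spans 80 bases on the strand of the gene, starting 50 bases before the annotated first base. Capitals mark the longest run of C or T that overlaps the 20 bases on either side of the start. They also mark the first TATA, if any, from 45 to 16 bases before the start.
Snhg1 (chr19:8723437-8723516, plus strand): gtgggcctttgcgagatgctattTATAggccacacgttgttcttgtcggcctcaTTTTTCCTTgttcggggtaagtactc
Snhg12 (chr4:132308628-132308707, plus strand): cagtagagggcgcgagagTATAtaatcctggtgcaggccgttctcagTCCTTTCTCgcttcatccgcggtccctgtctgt
Snhg5 (chr9:88522868-88522947, minus strand): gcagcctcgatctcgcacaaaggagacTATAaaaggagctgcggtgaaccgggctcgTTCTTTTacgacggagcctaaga
Snhg8 (chr3:123508307-123508386, minus strand): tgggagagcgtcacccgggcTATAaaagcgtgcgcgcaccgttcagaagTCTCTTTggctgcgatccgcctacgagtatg
Gas5 (chr1:161035116-161035195, plus strand): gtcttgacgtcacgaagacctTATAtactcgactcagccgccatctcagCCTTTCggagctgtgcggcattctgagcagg
Snhg3 (chr4:132353657-132353736, minus strand): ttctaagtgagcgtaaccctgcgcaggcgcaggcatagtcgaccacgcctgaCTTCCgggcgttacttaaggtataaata
Zfas1 (chr2:167062884-167062963, plus strand): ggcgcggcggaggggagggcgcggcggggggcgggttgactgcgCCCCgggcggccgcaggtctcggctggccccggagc

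The feature most hosts shared was a TATA. This motif, which reads the same on both strands, stood in that window in 5 of the 7 host genes, Snhg1, Snhg5, Snhg8, Snhg12 and the downstream start of Gas5, where it began 23 to 32 bases before the start. It stood there in 7.93% of all 27025 genes with a promoter entry, in 2 of 23 listed protein-coding hosts and in 1 of 11 other noncoding hosts. The TATA search was chosen after these sequences were seen. Runs of at least 7 pyrimidines were found in 4 of the 7 hosts, against 34.1% of all genes. Snhg1 and Snhg12 had the longest, 9 bases, a length reached by 14.9% of all annotated start sites. Gas5 had 6 bases at its downstream start and 3 at its upstream one, Snhg3 had 5 and Zfas1 had 4. A match is a description of these letters, and the annotated starts were not checked against the libraries.

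On chromatin, the 9 hosts did not share a side. Snhg1, Snhg5 and Snhg12 were higher in the pellet than in the soluble extract by 2-fold or more, none was lower by as much, and 6 were within that bound. These counts rest on the spike-in scale, on which pellet FPKM is multiplied by 3.37, a factor taken from the spike-ins, and on which a positive log2 fold means more RNA in the pellet per amount of spike-in. Of all 13917 loci whose 2 values average 0.5 FPKM or more, 31.9% were at least 2-fold higher and 10.5% at least 2-fold lower, so the 33.3% of hosts that were higher is a share near the background. The median log2 fold of the hosts was 0.34, and that of all tested loci 0.41. Without the spike-in factor every log2 fold is lower by 1.75. On that FPKM scale 1 host was higher, 6 were lower and the median was -1.42, against 9.66% of all tested loci higher, 61.2% lower and a median of -1.34. In bulk fractions, more nuclei that hold an RNA on chromatin and more such RNA per nucleus cannot be told apart.

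The one error that can be read from the table is how far single spike-ins depart from the common factor. Over the 47 spike-ins that average 0.5 FPKM or more, the log2 residuals had an SD of 0.12 and ranged from -0.28 to 0.23. The difference between a pair of loci then has a technical SD of 0.17. This covers neither the fractionation nor the cultures. All 9 hosts averaged 7.05 FPKM or more. Of 10 cardiomyocyte markers in the table all reached the level threshold, led by Myl7 and Tnnt2, while 2 of 7 markers of other cell types did, Pdgfra at a mean of 2.24 FPKM and Cd68 at 0.64.

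**Figure D1:**
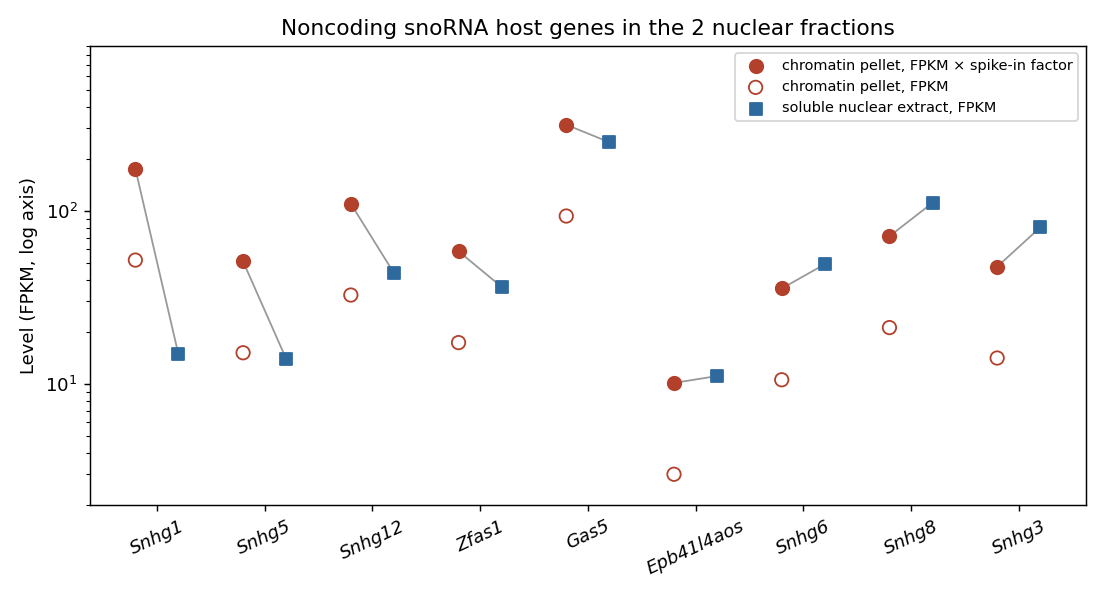
Level of the 9 hosts in the chromatin pellet (circles, filled after multiplication by the spike-in factor of 3.37, open as deposited) and in the soluble nuclear extract (squares), in FPKM on a log axis, ordered by the log2 fold. Each point is 1 pooled value without an error bar. Filled circles stand above the squares for Snhg1, Snhg5, Snhg12, Zfas1 and Gas5 and below them for Epb41l4aos, Snhg6, Snhg8 and Snhg3.

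Snhg1, the host of a cluster of C/D snoRNAs (chr19, 8723487 to 8726326), stood furthest towards chromatin. It had 52.0 FPKM in the pellet and 14.8 in the soluble extract, a log2 fold of 3.57 or 11.8-fold, and it is the one host that was also at least 2-fold higher on the FPKM scale, at 1.81. With this fold it passed 93.5% of all tested loci. Among the 798 tested lincRNA, processed transcript and antisense loci, 18 were at least as abundant as Snhg1 by the mean of both fractions, itself included, and 3 of those had a larger fold. Its locus in the table holds no other gene outside the small RNA types, and the snoRNA Snord22 was matched inside it.

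Snhg5 and Snhg12 followed. Snhg5, the host of the U50 snoRNA (chr9, 88521052 to 88522897), had nearly equal deposited values, 15.1 FPKM in the pellet and 13.9 in the soluble extract, which gives 1.87 on the spike-in scale and 0.12 on the FPKM scale. Snhg12, which carries both H/ACA and C/D snoRNAs (chr4, 132308678 to 132311024), had 32.6 FPKM in the pellet and 43.8 in the soluble extract. Its log2 fold of 1.33 turns to -0.42 on the FPKM scale. Of the summed signal of both fractions after rescaling, 92.2% was in the pellet for Snhg1, 78.5% for Snhg5 and 71.6% for Snhg12.

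Gas5, growth arrest-specific 5, was the most abundant host and divided almost evenly. It had 93.5 FPKM in the pellet and 249.7 in the soluble extract, with a log2 fold of 0.34 on the spike-in scale and -1.42 on the FPKM scale, and 55.8% of its rescaled signal was in the pellet. Gas5 (chr1, 161034601 to 161038539) ranked sixth in the pellet and second in the soluble extract among the 798 noncoding loci. It made up 36.0% of the summed FPKM of the 9 hosts in the pellet and 40.9% in the soluble extract. Zfas1, transcribed away from the start of the zinc finger gene Znfx1 (chr2, 167062934 to 167065862), had 17.3 FPKM in the pellet and 36.4 in the soluble extract, a log2 fold of 0.68.

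The remaining 4 lay slightly below 0. Epb41l4aos, beside the gene of the cytoskeletal protein Epb41l4a (chr18, 33794892 to 33795989), was the least abundant host with 3.001 FPKM in the pellet and 11.1 in the soluble extract, a log2 fold of -0.13. Snhg6, host of the U87 snoRNA (chr1, 9942025 to 9944118), had 10.6 FPKM in the pellet and 49.2 in the soluble extract, or -0.47. Snhg8, with 785 bp the shortest host (chr3, 123507552 to 123508336), had 21.2 FPKM in the pellet and 111.5 in the soluble extract, or -0.64. Snhg3, the U17 host gene (chr4, 132351933 to 132353686), was lowest at -0.76, with 14.1 FPKM in the pellet and 80.3 in the soluble extract.

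Along this order each host from Snhg1 down to Gas5 differed from the next by 0.35 or more, over 2 technical SDs of a difference. The steps from Epb41l4aos to Snhg6 (0.33), Snhg6 to Snhg8 (0.18) and Snhg8 to Snhg3 (0.11) were within that bound, so neighbours among these 4 are not separated even technically. The hosts thus spanned 4.32 on the log2 scale of the fold. They also spanned 31.1-fold in pellet FPKM and 22.5-fold in soluble FPKM.

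Some hosts are not alone in their locus in the table, a split looked at after the values were seen. The table gives overlapping genes that were assembled together the same coordinates. With rows of the small RNA types left out of the count, 4 hosts share theirs with other genes: Snhg3 (2 such genes), Snhg6 (1), Zfas1 (1) and Gas5 (5). None of these 4 was at least 2-fold higher or lower, and their median log2 fold was -0.065. Of the 5 hosts alone in their locus, Snhg1, Snhg5, Snhg8, Snhg12 and Epb41l4aos, 3 were higher and 0 lower, and the middle value was 1.33, beside 31.9% of all tested loci higher and 10.5% lower. On the FPKM scale 1 of these 5 was higher and 2 were lower, and the middle value was -0.42, while all 4 sharing hosts were lower. Of all tested loci, 9.66% were higher and 61.2% lower on that scale. The part of this sharing in the folds was not tested.

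The snoRNAs inside the hosts were found in the pellet to a greater degree than the hosts. RefSeq places 30 snoRNA genes inside the 9 hosts, and 11 of these were matched by symbol to a snoRNA row of the table. Another 3 snoRNA rows have no RefSeq position here and share the deposited locus of Gas5 or Zfas1. These loci reach beyond the hosts (chr1, 160978585 to 161038539, and chr2, 167035793 to 167065862), so a position inside the host was not shown for these 3. On the spike-in scale all 14 were higher in the pellet by 2-fold or more, against 92.3% of the 312 tested snoRNA loci. Their median log2 fold was 3.42, against 3.38 for the 298 tested snoRNAs outside these hosts. The 11 placed by RefSeq had a median of 3.37. On the FPKM scale 10 of the 14 were higher and 0 lower, at a median of 1.67, beside 202 of the 312 snoRNA loci higher. The hosts had a lower fold than the median of their snoRNAs in 7 of 8 loci. The difference, host minus snoRNA, had a median of -3.29 and does not depend on the spike-in factor. For Snhg5 no snoRNA row was matched.

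Snhg1 was the exception, with a fold 1.88 above that of its snoRNA on the log2 scale. Snord22 (U22), known in Xenopus as needed for maturation of the small subunit ribosomal RNA, had 13786.5 FPKM in the pellet and 14403 in the soluble extract, a log2 fold of 1.69. It was the most abundant of the 14 snoRNAs and the one with the smallest fold. RefSeq places 8 snoRNA genes inside Snhg1, and Snord22 alone was matched. There were 265.3 FPKM of Snord22 per FPKM of Snhg1 in the pellet, against 973.2 in the soluble extract. Whether fragments of unspliced host RNA or of snoRNAs entered the value of Snhg1 was not tested.

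Snhg3 showed the opposite arrangement. Its H/ACA snoRNAs Snora73a and Snora73b, copies of U17, which takes part in cleavage of the ribosomal RNA precursor, had nearly the same fold, 2.63 and 2.61. Snora73a had 8643 FPKM in the pellet and 4695.5 in the soluble extract. Snora73b had 12559 FPKM in the pellet and 6922 in the soluble extract. The difference of host minus their median was -3.38. Snora73a and Snora73b are close copies, between which fragments can be misassigned.

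Snhg8 and Epb41l4aos, each with 1 matched snoRNA, had differences of a similar size. Snora24, inside Snhg8, had 1495 FPKM in the pellet and 879.6 in the soluble extract, a log2 fold of 2.52, and the difference of host minus snoRNA was -3.16. Gm23639, a snoRNA with no family name in the table and inside Epb41l4aos, had 333.8 FPKM in the pellet and 134.0 in the soluble extract, or 3.07, and the difference was -3.20. In Snhg12 the 3 H/ACA snoRNAs Snora44 (6530.5 pellet and 1530.2 soluble FPKM), Snora61 (2033 pellet and 615.0 soluble FPKM) and Snora16a (705.9 pellet and 230.7 soluble FPKM) had log2 folds of 3.85, 3.48 and 3.37. Snhg12 minus their median was -2.15, the smallest in size of the 7 differences below 0.

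The largest snoRNA folds were found in Gas5, Zfas1 and Snhg6. In Gas5, Snord47 had 3198 FPKM in the pellet and 380.5 in the soluble extract, a log2 fold of 4.83. Sharing the Gas5 locus, Snord80, a C/D snoRNA known from Gas5 and listed as Gm24489, had 826.5 FPKM in the pellet and 17.2 in the soluble extract, or 7.34, and Gm22357 had 4468 FPKM in the pellet and 465.1 in the soluble extract, or 5.02. In Zfas1, Gm23201 had 1393 FPKM in the pellet and 78.5 in the soluble extract, or 5.90, and Gm25878, which shares the locus, had 155.7 FPKM in the pellet and 61.0 in the soluble extract, or 3.11. Snord87, inside Snhg6, had 70.5 FPKM in the pellet but only 1.10 in the soluble extract, a log2 fold of 7.76 and a difference of host minus snoRNA of -8.23. In the soluble extract Snord87 (0.0223 of the host) and Snord80 (0.0689 of Gas5) were less abundant per length than their hosts, unlike the other 12. These RNAs are shorter than or close to the sequenced fragments, so their FPKM rests on a poorly determined effective length in both fractions.

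**Figure D2:**
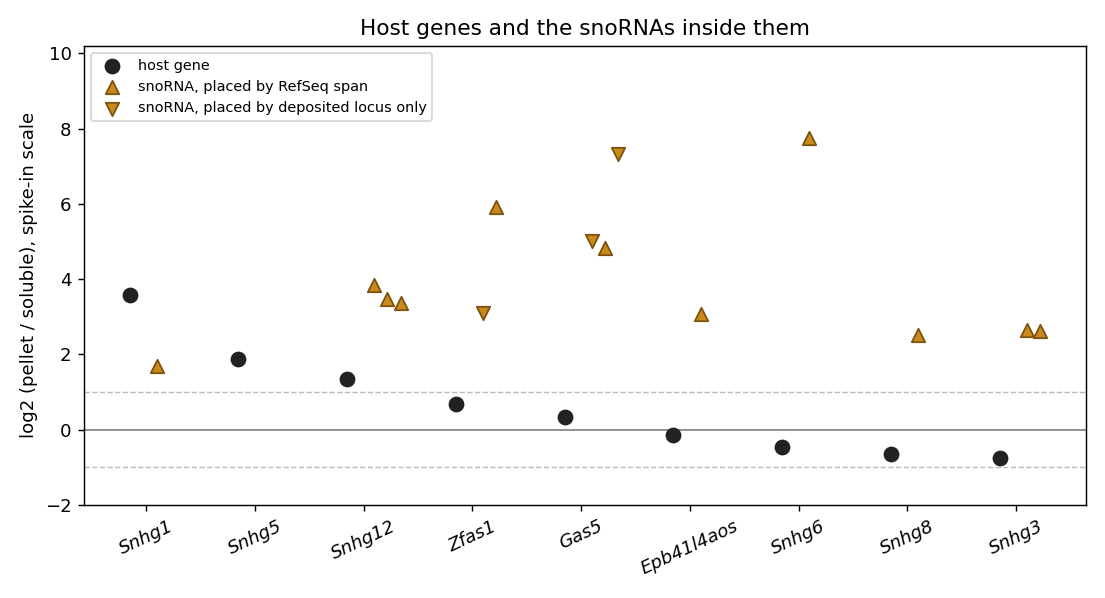
The log2 fold of pellet over soluble on the spike-in scale for each host (black circles) and for the snoRNA rows assigned to it. Rows were assigned by RefSeq span (upward triangles) or by the shared deposited locus alone (downward triangles). Dashed lines mark 2-fold. Every snoRNA stands above its host except in Snhg1 (3.57 for the host and 1.69 for Snord22), and Snhg5 has no matched snoRNA row.

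Together the 14 snoRNAs summed to 56200.1 FPKM in the pellet and 30414 in the soluble extract. That is 10.7% of all snoRNA FPKM in the pellet and 18.02% in the soluble extract. The 9 hosts summed to 259.3 FPKM in the pellet and 610.7 in the soluble extract, a log2 fold of 0.52 for the sum on the spike-in scale.

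Protein-coding genes beside the hosts differed from them in both directions. Slc3a2, the heavy chain of amino acid transporters, lies on the other strand with its RefSeq span ending 118 bp from that of Snhg1, although the closest start sites in the promoter entries are 9590 bp apart. It had 15.02 FPKM in the pellet and 137.5 in the soluble extract, a log2 fold of -1.44. Snhg1 minus Slc3a2 was 5.01. Zbtb37, a zinc finger gene whose annotated start lies 248 bp from one of Gas5 on the other strand, had 7.74 FPKM in the pellet and 8.33 in the soluble extract, or 1.65. Gas5 minus Zbtb37 was -1.31. Znfx1, a helicase-like zinc finger gene whose start lies 81 bp from that of Zfas1, had 4.73 FPKM in the pellet and 12.3 in the soluble extract, or 0.38. Zfas1 minus Znfx1 was 0.31. In these pooled values the difference between a host and its neighbour on the other strand exceeded 2 technical SDs at Snhg1 and Gas5. At Zfas1 it was within 2 technical SDs. Zbtb37 overlaps Gas5 and Znfx1 overlaps Zfas1, each pair in a shared deposited locus, and the assignment of fragments between them was not tested.

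The other neighbours were mixed too. Rcc1, the Ran exchange factor gene that shares the deposited locus of Snhg3, had a log2 fold of 0.75, a difference of -1.51 for Snhg3 minus Rcc1. Trnau1ap, a selenocysteine transfer RNA factor gene that converges on Snhg12, had -0.21, a difference of 1.54 for Snhg12 minus Trnau1ap. Epb41l4a had 0.69, a difference of -0.83 for Epb41l4aos minus Epb41l4a. Mcmdc2, overlapping Snhg6, and Prss12, near Snhg8, were below the level threshold at a mean of 0.32 and 0.16 FPKM. Serpinc1 shares the deposited locus of Gas5 from 32058 bp away and had 3.56 at a mean of 0.51 FPKM.

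**Figure D3:**
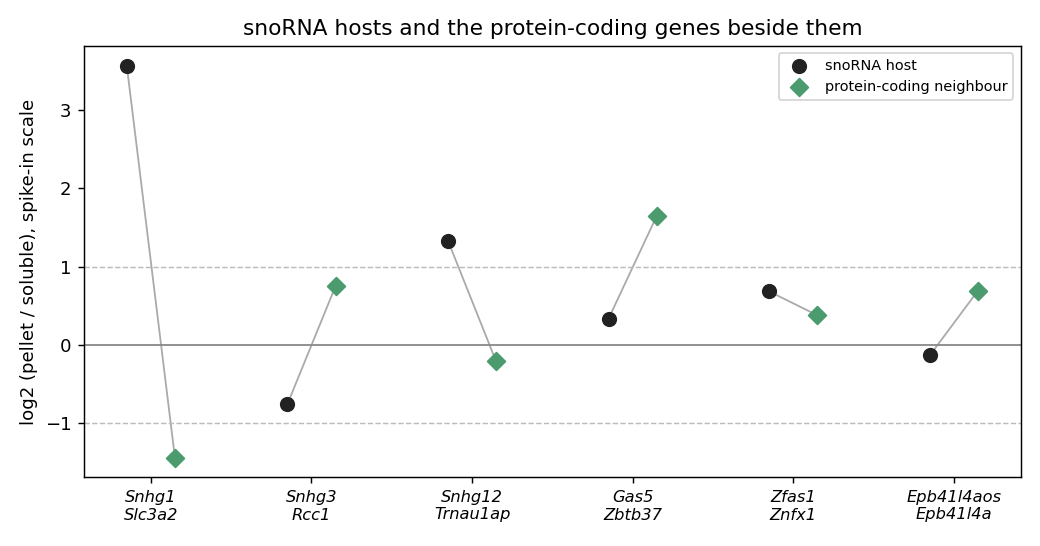
The log2 fold of pellet over soluble on the spike-in scale for hosts (black circles) and for the neighbouring protein-coding genes named here that were above the level threshold, apart from Serpinc1 (green diamonds), 1 pair per column. Dashed lines mark 2-fold. Snhg1 and Slc3a2 stand on opposite sides, at 3.57 and -1.44, and Gas5 lies below Zbtb37.

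The 9 hosts, with a median log2 fold of 0.34, lay between listed noncoding hosts outside the 9 (1.35) and listed protein-coding ones (-1.20). The lower end of this order holds for the listed genes only. All 272 tested protein-coding genes with a snoRNA inside their RefSeq span had a median of 0.39, slightly above the 9 hosts. Of the 12 further noncoding hosts 10 were tested, and 7 of these were higher in the pellet while 0 were lower. Over all tested loci 31.9% were higher and 10.5% lower. Snhg17 (4.22 pellet and 2.33 soluble FPKM) and Snhg16 (14.9 pellet and 10.1 soluble FPKM) led with 2.61 and 2.32, followed by Snhg7 with 1.55. Lowest were Snhg10 with -0.72, Snhg18 with -0.13 and Snhg4 with 0.50. All 10 were below 20 FPKM in both fractions. On the FPKM scale their median turns to -0.40, with 0 higher and 3 lower, against 9.66% and 61.2% of all tested loci. Taking every RefSeq long noncoding gene with a snoRNA inside its span, whatever the strand, and leaving out the 9, the median of the 17 tested was 1.49, and 10 of them were higher while 0 were lower. On the FPKM scale 2 of the 17 were higher and 7 lower, and the median turns to -0.27.

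The listed protein-coding hosts were mostly genes of ribosomal proteins and translation factors. Of the 34 tested, 23 were lower in the pellet and 1 was higher, against 10.5% and 31.9% of all tested loci. Rpl32 (-1.85), Rps13 (-1.80) and Rpl23a (-1.80), all ribosomal protein genes, were lowest. Eif4a2, an RNA helicase gene of translation initiation, was the one that was higher, at 2.72 (97.6 pellet and 49.8 soluble FPKM). It was followed by Nop56 at 0.86 and Eif4g2 at 0.45. On the FPKM scale 32 of these 34 were lower and 0 higher, at a median of -2.95, against 61.2% of all tested loci lower. Across all 272 tested protein-coding genes with a snoRNA inside their RefSeq span, on either strand, the median was 0.39, while 75 were higher and 35 were lower. This balance turns round without the spike-in factor, with 170 lower, 5 higher and a median of -1.36. The 9 hosts also had a smaller share of higher loci, 33.3%, than lincRNA loci (67.3% of 370) and processed transcripts (63% of 192), the types the table gives to most of them. On the FPKM scale 1 host was higher and 6 were lower, against 111 and 100 of the 370 lincRNA loci. For the 192 processed transcripts these counts were 55 and 61. The lists were not matched for level, as the hosts averaged 7.05 FPKM or more and these loci 0.5 or more. No test bears on these differences between lists.

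**Figure D4:**
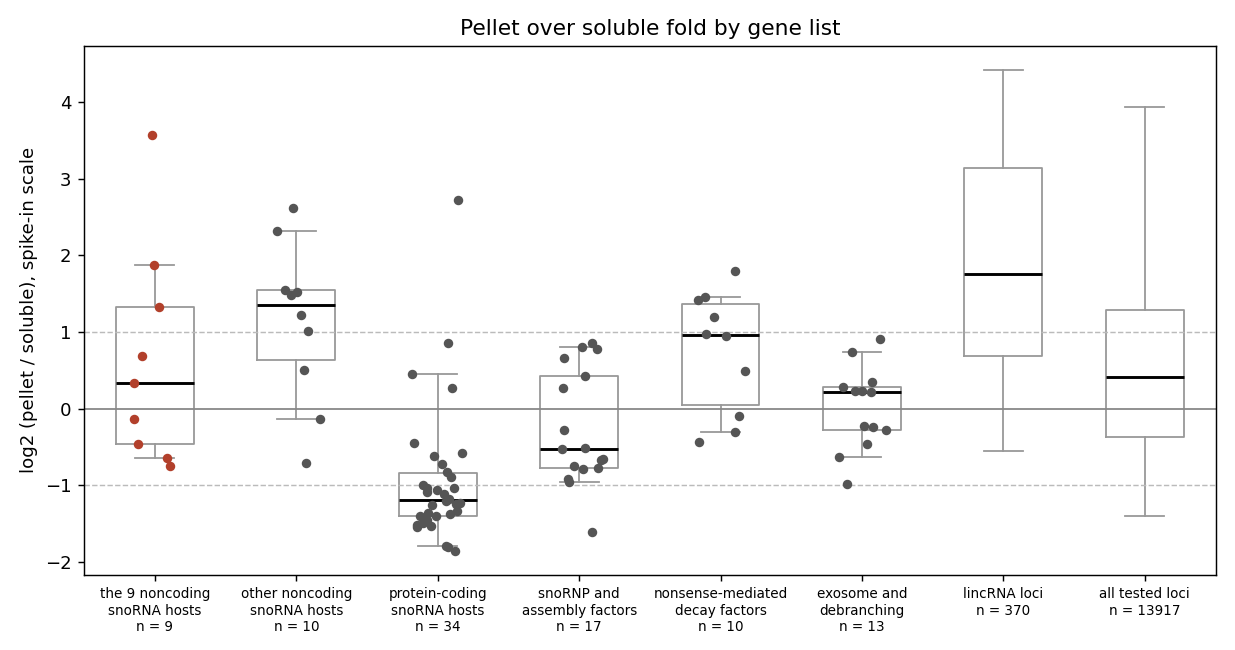
The log2 fold of pellet over soluble on the spike-in scale by gene list. Points are genes, the thick line is the median, boxes span the quartiles and whiskers the 5th to 95th percentile, and points are left out for lincRNA and all tested loci. The 9 hosts have a median of 0.34, listed other noncoding hosts 1.35, listed protein-coding hosts -1.20 and all tested loci 0.41.

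Genes of the machinery that makes snoRNPs or degrades host transcripts mostly differed by less than 2-fold between the fractions on the spike-in scale. Of all 13917 tested loci 8016 did so too, while 31.9% were higher and 10.5% lower. On the FPKM scale 9.66% of all tested loci were higher and 61.2% lower. The counts below stand beside these shares. The 17 snoRNP proteins and assembly factors had a median of -0.53, and 1 of them was lower while 0 were higher. Nop10, a core protein of H/ACA snoRNPs, was that one at -1.62 (2.77 pellet and 28.7 soluble FPKM), followed by Nhp2, another core protein, at -0.96 and the helicase gene Ruvbl2 at -0.92. Nop56, a core protein of C/D snoRNPs that is itself a snoRNA host, was highest at 0.86, before the H/ACA assembly factors Naf1 at 0.80 and Shq1 at 0.77. Without the spike-in factor 14 of the 17 were lower and 0 higher, at a median of -2.29. The 10 nonsense-mediated decay factors had a median of 0.96, and 4 of them were higher while 0 were lower. The kinase gene Smg1 had 1.79 (21.0 pellet and 20.4 soluble FPKM) and Upf3b had 1.42, while Upf3a had -0.44, Smg8 -0.31 and the helicase gene Upf1 -0.10. On the FPKM scale their median was -0.79, and 4 were lower while 0 were higher. All 13 tested genes listed for nuclear RNA decay, mainly the exosome, and intron debranching were within 2-fold, with a median of 0.21. They lay between Exosc3 at -0.98 and Xrn2, an exonuclease gene outside the exosome, at 0.91. Without the spike-in factor 12 of the 13 were lower and 0 higher, at a median of -1.54.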

How the data were processed

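HL-1 nuclear RNA was depleted of ribosomal RNA and made into strand-specific libraries, per the labels' protocols. The submitters' processing notes name the build mm10 and the tools HISAT2, Cufflinks, Cuffdiff, SAMtools and bedtools, without a version, setting or order. The authors deposited 1 FPKM value per fraction and locus. They also deposited a rescaled pellet signal and a total signal, the ratio of rescaled pellet to soluble (fold enrichment), and log10 values of the total and the ratio, per the file headers. The deposited factor was compared with the slope through the origin over 82 spike-ins, and both are 3.37. Depth is unknown from FPKM.

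Of 30687 lines, 1945 repeated an identifier and were dropped, and in 1889 the gene name stood in the type column. Folds were log2 of rescaled pellet over soluble FPKM, with no pseudocount, for 13917 loci averaging 0.5 FPKM or more. The threshold was 2-fold. Python 3.11.15, pandas 2.3.3 and numpy 2.4.6 were used, and the code was tested on simulated data. The planned same-strand rule for snoRNAs could not be applied, since the annotation used gives no strand for them. Alternatives were other scalings, filters, pseudocounts and thresholds. Malat1, Neat1 and Ryr2 were not analysed here. Airn was the one tested RNA of 4 nuclear-retained long noncoding RNAs, at a log2 fold of 4.37. Named genes are the 9 hosts, their snoRNAs and neighbours, and the 3 highest and 3 lowest of each list, apart from 2 genes that are not reported here. Members and lists were chosen with earlier results of these data known.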

Additional observations from a re-analysis of the deposited data

How the results depend on the processing

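Scaling was the choice that moved the results most. On the FPKM scale 1 host was higher in the pellet and 6 were lower, the host median was -1.42, the hosted snoRNA median 1.67, Snhg12 reversed to -0.42 and the median of other noncoding hosts to -0.40. With the median of tested loci set to 0, 2 hosts (Snhg1 and Snhg5) were higher, Snhg12 at 0.92 was no longer so, 2 (Snhg3 and Snhg8) were lower, the host median was -0.075 and the snoRNA median 3.01. At 4-fold 1 host was higher and 0 were lower, and at 1.5-fold 4 were higher and 2 lower. Shares of all tested loci were not computed at these thresholds or with that median set to 0, so these counts stand without a background. Chosen after seeing the data, the 5 hosts alone in their locus had a median of 1.33 and the 8 other than Snhg1 had 0.10. The spike-in factor from median ratios, pseudocounts of 0.1 and 1, the deposited enrichment column and level filters of none or 5 FPKM moved neither the counts and median of the 9 hosts nor the median of their snoRNAs by more than the spike-in SD. The median of other noncoding hosts was 1.505 without a level filter and 1.12 at 5 FPKM. That of snoRNP and assembly factor genes went from -0.53 to -0.67 at 5 FPKM. The host minus snoRNA difference kept its sign in all 8 loci under every alternative run. The moved values go with the construction of each setting, namely a constant shift, another threshold, a pseudocount or another set of genes. With pseudocounts of 0.1 and 1 the Snhg6 host minus snoRNA difference moved from -8.23 to -8.10 and -7.29. No paired analysis was possible because the table gives 1 pooled value per fraction, and for the same reason no replicate could be left out. The depth of the libraries is unknown.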
